A study of Rattus norvegicus with 4 samples.

Results

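The F-box genes (Fbxo, Fbxl, Fbxw and Skp2), the cullins Cul2 to Cul9 and the E2 genes (Ube2) were examined in cardiomyocytes that overexpressed atrogin-1. They were taken from the array's table of probe sets and genes by their symbols, leaving out Fbxo32, Fbxo40, Cul1 and Ube2c. This gave 92 genes. A probe set of their own was present for 87 of them, among 14217 such genes on the array: 52 F-box genes (30 Fbxo, 14 Fbxl and 8 Fbxw), 7 cullins and 28 E2 genes. The other 5 (Skp2, Ube2d3, Ube2e1, Ube2v1 and Ube2v1l1) are read only by probe sets that several genes share. In all there were 147 probe sets of 31042, of which 138 belong to 1 gene and 9 to several.

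The study asked how the transcriptome of heart muscle cells responds to atrogin-1. Ventricular cardiomyocytes from newborn Sprague-Dawley rats aged 1 to 2 days, a primary culture of heart muscle cells, were infected with an adenovirus for 24 hours in serum-free medium. The Ad-GFP group (2 arrays) received GFP alone and the Ad-atrogin-1 group (2 arrays) received a virus that carries atrogin-1 together with GFP, so both groups carried virus and GFP. Each array was hybridized with the RNA of 1 sample. The labels number the arrays of each group as biological replicates, while the methods describe more independent experiments than there are arrays in a group, so p-values measure only the spread between these arrays.

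Ubiquitin is passed from an E1 enzyme to an E2 enzyme and, with the help of an E3 ligase, to a substrate. In the SCF ligases a cullin is the scaffold, a RING protein at one end holds the E2, and SKP1 at the other end holds an F-box protein, which selects the substrate. Atrogin-1, encoded by Fbxo32, is itself an F-box protein of heart and skeletal muscle, so the genes described here are its relatives, the scaffolds of related ligases and the enzymes that supply them with ubiquitin.

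Each value is the log2 signal of a probe set. The array medians lay between 5.51 and 5.53 and the lower quartiles between 3.88 and 3.94, and a difference that starts from signals under the lower quartile is not an exact size because no background level was estimated. Fbxo32 had log2 signals of 5.24 and 5.04 on the Ad-GFP arrays and 13.55 and 13.47 on the Ad-atrogin-1 arrays, 331-fold higher (adjusted p = 3.51e-05, limma). How much of this signal came from RNA of the virus was not tested. The labelled cell type was checked with 11 cardiomyocyte marker genes, whose mean log2 signal was 11.22 and 11.42 on the Ad-GFP arrays and 11.71 and 11.32 on the Ad-atrogin-1 arrays. Mean signals per array ranged from 9.17 to 9.74 for 9 fibroblast markers, from 5.83 to 6.72 for 7 endothelial markers, from 7.24 to 7.59 for 7 smooth muscle and pericyte markers and from 4.68 to 5.66 for 9 macrophage and leukocyte markers. No gene of these 5 lists lay under the lower quartile on all arrays and limma called none of them. At an unadjusted p under 0.05 limma had 3 higher and 2 lower, against 6.83% and 6.52% of all genes. Of these, 2 higher and 2 lower were among the 7 smooth muscle and pericyte genes, whose log2 differences ran from -0.50 to 0.98. In that list the groups did not overlap in 3 genes that were higher and 2 that were lower in Ad-atrogin-1. The same counts were 4 and 1 for the 11 cardiomyocyte markers and 2 and 0 for the 9 fibroblast markers. They were 0 and 0 for the endothelial markers and for the macrophage and leukocyte markers. Over all genes the shares were 20.7% higher and 22.3% lower. An equal-variance t-test with adjusted p called no gene of the array. It is called the methods' t-test here, although the paper names no t-test for its arrays. In such a culture, fewer cells of a type and less RNA per cell cannot be told apart.

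Of the 87 genes, 1 rose, the F-box gene Fbxo16, and none fell. A gene is called when the adjusted p of limma over all 14217 genes is under 0.05 and the difference is at least 2-fold. By that rule 0.457% of all genes (65) were called higher and 0.0563% (8) lower, and after a further quantile normalization 74 and 20. With the replicate number as a block limma called 1 gene of the whole array higher and 0 lower, and with any 1 array left out 0 or 1 higher and 0 lower; Fbxo16 was not among these. At the level of probe sets, Fbxo16 was again the single call among 147, none was called lower, and the shares over all probe sets were 0.248% higher and 0.0258% lower. The methods' t-test with adjusted p called none of the 87. At an unadjusted p under 0.05, limma had 5 of the 87 genes higher (5.75%) and 6 lower (6.90%), against 6.83% and 6.52% of all genes, so both shares lay near the background. The 5 were Fbxo16, Fbxl22, Ube2t, Fbxo33 and Fbxw5, and the 6 were Fbxo27, Fbxo42, Fbxo30, Fbxl5, Ube2ql1 and Fbxl19. Both counts moved when single arrays were left out, and the shares of all genes under those fits were not counted.

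**Figure D1:**
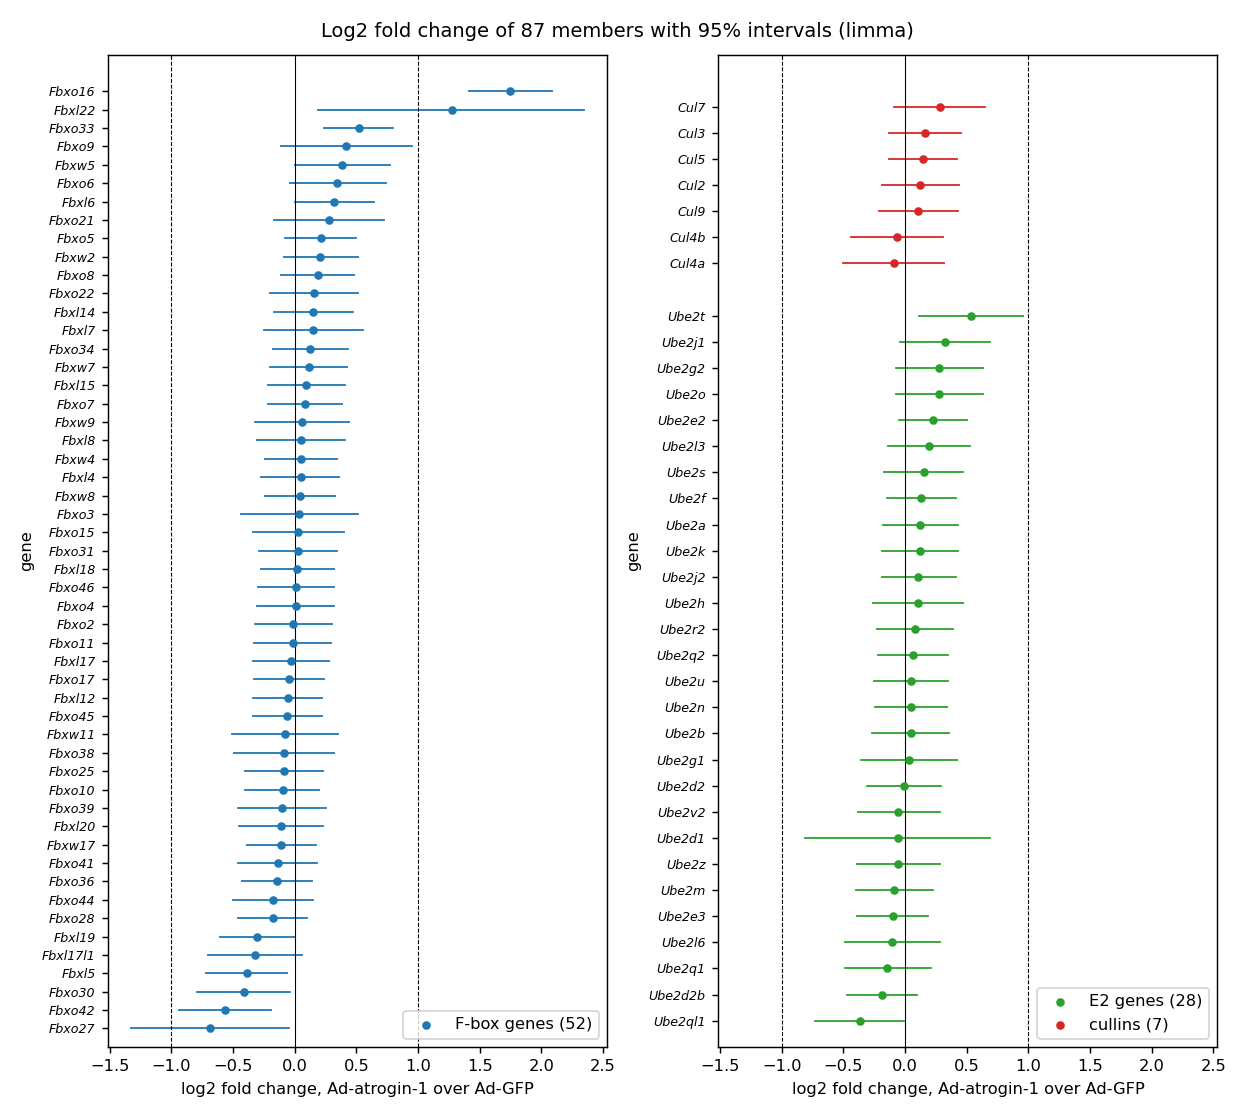
Fold change on the log2 scale of each of the 87 genes (positive where Ad-atrogin-1 was higher, 2 arrays a group; points) with its 95% interval from limma (bars), F-box genes at left, cullins and E2 genes at right; dashed lines mark 2-fold. The intervals of Fbxo16, Fbxl22 and Fbxo27 reach past 2-fold, and the other 84 stay between the dashed lines.

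Most of the genes differed little, and the intervals give the size that remains possible. For 84 of the 87 genes (96.6%) the 95% interval of the difference lay within 2-fold in either direction, against 92.6% of all genes. This held for 49 of the 52 F-box genes, all 7 cullins and all 28 E2 genes. The exceptions were Fbxo16, Fbxl22 and Fbxo27. The absolute log2 difference was under 0.1 in 37 genes, from 0.1 to under 0.25 in 30, from 0.25 to under 0.5 in 14, from 0.5 to under 1 in 4 and at least 1 in 2. The median absolute difference between the groups was 0.11, beside 0.12 between the 2 Ad-GFP arrays and 0.13 between the 2 Ad-atrogin-1 arrays. Over all genes these medians were 0.14, 0.15 and 0.15. The first is a difference between means of 2 arrays and the others are differences between single arrays, which vary more, so the sizes are not directly comparable.

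Both Ad-atrogin-1 arrays lay above both Ad-GFP arrays in 26 of the 87 genes (29.9%, against 20.7% of all genes) and below both in 15 (17.2%, against 22.3%). The E2 genes contributed 11 higher and 3 lower of 28, the F-box genes 12 and 12 of 52, and the cullins 3 and 0 of 7. These counts take the brightest probe set of each gene. Of all 147 probe sets of the part, 36 were higher (24.5%) and 30 lower (20.4%). The same shares over all probe sets of the array were not counted, so these have no background here. The median log2 difference was 0.02 for the F-box genes, 0.13 for the cullins and 0.06 for the E2 genes, beside -0.003 for all genes. The difference was positive in 29 of 52 F-box genes, 5 of 7 cullins and 18 of 28 E2 genes, and in 49.2% of all genes. These counts were not tested as lists. With Ad-GFP replicate 2 left out the F-box median turned to -0.012, and with Ad-atrogin-1 replicate 1 left out to -0.021.

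**Figure D2:**
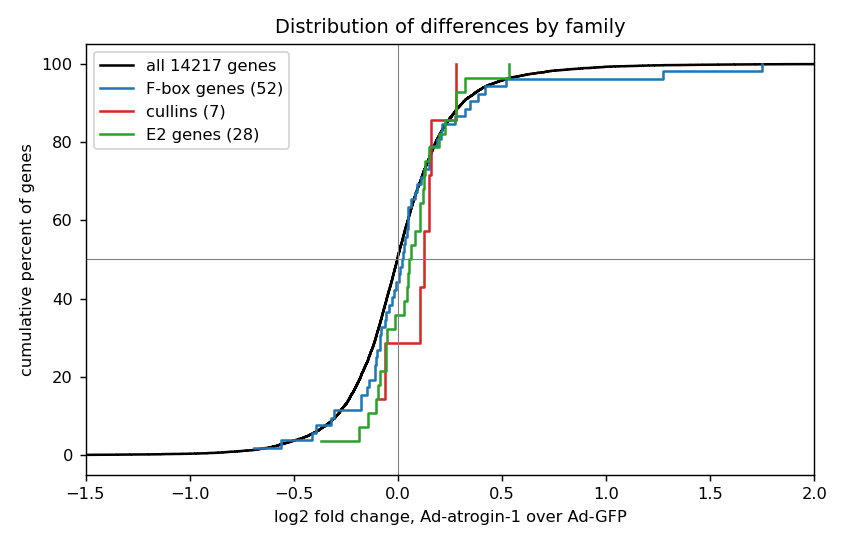
Cumulative percent of genes (vertical axis) by log2 fold change between the groups (horizontal axis, positive where Ad-atrogin-1 was higher), for all 14217 genes and for the 3 families. The F-box line follows that of all genes and ends at Fbxo16 (1.75), while the cullin and E2 lines cross 50% at 0.13 and 0.06.

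Fbxo16 was the member with the largest difference. Its protein is an F-box protein that has been described in cancer cells as marking nuclear beta-catenin for degradation. Its log2 signals were 3.79 and 3.89 in Ad-GFP and 5.71 and 5.47 in Ad-atrogin-1. The lower Ad-atrogin-1 array stood well above the higher Ad-GFP array, and both Ad-GFP signals were under the lower quartile of their arrays. The difference was 1.75 on the log2 scale (standard error 0.14, 95% interval 1.41 to 2.09, 3.36-fold, limma adjusted p = 0.0179). It rests on 1 probe set. With 1 array left out the difference stayed between 1.63 and 1.87, but the limma adjusted p rose to 0.386 (Ad-GFP replicate 1 left out), 0.405 (Ad-GFP replicate 2), 0.429 (Ad-atrogin-1 replicate 1) and 0.449 (Ad-atrogin-1 replicate 2). With the replicate number as a block it was 0.144, so that the call was lost there too. In the upper 60% of probe sets by signal Fbxo16 was not included.

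**Figure D3:**
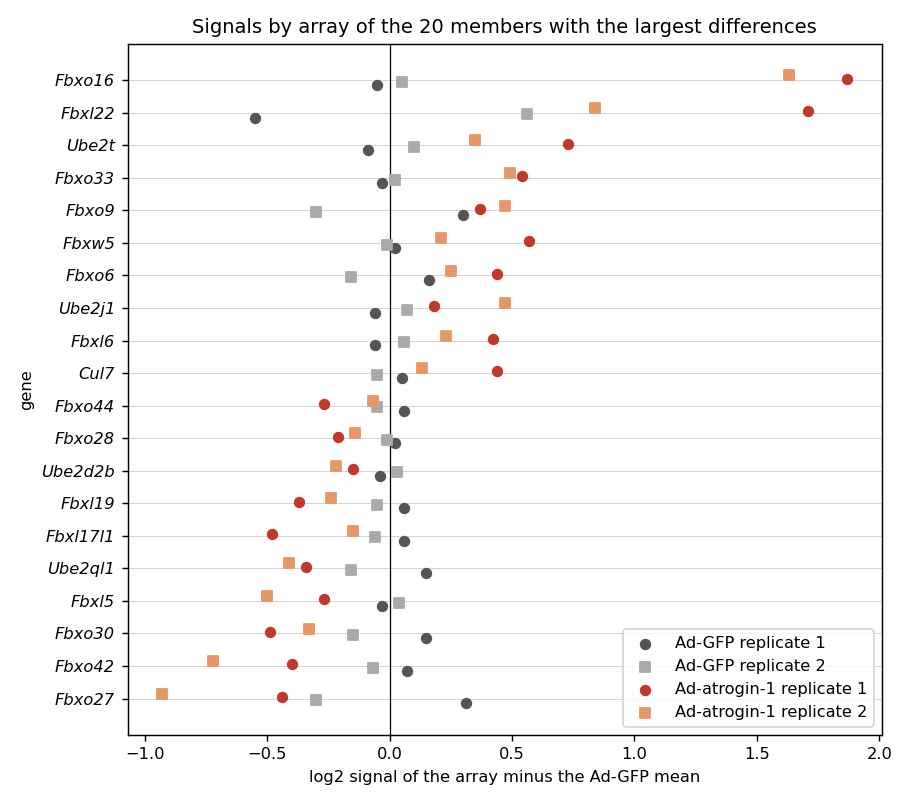
Log2 signal of each of the 4 arrays minus the Ad-GFP mean, for the 20 genes whose groups do not overlap and whose differences are farthest from 0 (10 in each direction) (circles replicate 1, squares replicate 2). Fbxo16 shows tight pairs 1.75 apart, and the arrays of Fbxl22 spread within each group by 0.87 or more.

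Among the F-box genes of muscle and the relatives of atrogin-1, none of 7 was called, and their median log2 difference was 0.03. Fbxl22, a heart-enriched F-box gene whose protein sits at the Z-disc and controls the turnover of alpha-actinin and filamin C, had log2 signals of 7.45 and 8.56 in Ad-GFP and 9.71 and 8.84 in Ad-atrogin-1. The groups did not overlap, but the Ad-GFP arrays differed from each other by 1.11 and the Ad-atrogin-1 arrays by 0.87. The difference was 1.27 (standard error 0.43, interval 0.19 to 2.35, limma adjusted p = 0.301). Over its alternatives the adjusted p ran from 0.266 (limma, upper 60% of probe sets by signal) to 0.685 (the methods' t-test). The difference was 0.72 or 1.83 when Ad-GFP replicate 1 or 2 was left out, and 0.84 or 1.71 when Ad-atrogin-1 replicate 1 or 2 was. The mean of the cardiomyocyte markers was lowest on the array where Fbxl22 was lowest and highest on the array where it was highest. The same held for the mean of the fibroblast markers (9.17 and 9.72 against 9.74 and 9.42), and the part of either list in this difference was not tested.

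Fbxo30 encodes MUSA1, an F-box protein induced in muscle atrophy. It had log2 signals of 9.11 and 8.81 in Ad-GFP and 8.47 and 8.63 in Ad-atrogin-1, a difference of -0.41 (standard error 0.15, limma adjusted p = 0.335). Over its alternatives the adjusted p ran from 0.293 (limma after a further quantile normalization) to 0.640 (the methods' t-test). A further probe set of the gene read 8.36 and 8.07 against 7.78 and 7.85, a difference of -0.40. Both probe sets thus had both Ad-atrogin-1 arrays below both Ad-GFP arrays, without passing the adjusted threshold. Fbxo21, known as SMART and also linked to muscle atrophy, differed by 0.27 with overlapping groups (5.92 and 5.76 against 6.34 and 5.89). Fbxo25, the closest relative of atrogin-1, had signals of 6.41 and 6.24 in Ad-GFP and 6.17 and 6.31 in Ad-atrogin-1. Its difference of -0.08 had an interval from -0.40 to 0.23, so that a change of 2-fold in either direction lay outside it. The remaining 3, Fbxo3, Fbxo31 and Fbxo45, differed by 0.03, 0.03 and -0.06. The dimmer probe set of Fbxo45 went the other way (4.09 and 4.29 against 4.36 and 4.30, 0.14), and those of Fbxo3 gave -0.03 and -0.20.

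The group listed as glycoprotein-binding F-box proteins includes some that recognise sugar chains on misfolded proteins that leave the endoplasmic reticulum (ER). None of the 5 genes listed in this group was called, and only Fbxo6 had a positive difference, with a median of -0.04. Fbxo6 read 8.80 and 8.48 in Ad-GFP and 9.08 and 8.89 in Ad-atrogin-1, a difference of 0.35 (interval -0.04 to 0.74). Fbxo27 was the member with the largest negative difference, at 7.36 and 6.75 against 6.61 and 6.12. Its difference of -0.69 (standard error 0.26, interval -1.33 to -0.05, limma adjusted p = 0.344) was close to the 0.61 that separated the 2 Ad-GFP arrays. Over its alternatives the adjusted p ran from 0.206 (limma with the replicate number as a block) to 0.692 (the methods' t-test). Fbxo44, Fbxo17 and Fbxo2 differed by -0.18, -0.04 and -0.01, and Fbxo2 was under the lower quartile on all 4 arrays.

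Fbxo33, which encodes a ligase subunit for the RNA-binding protein YB-1, had the smallest p of the members that missed the adjusted threshold. Its log2 signals were 7.71 and 7.76 in Ad-GFP and 8.28 and 8.23 in Ad-atrogin-1. The arrays of a group lay within 0.05 of each other, and the groups 0.52 apart (standard error 0.11, interval 0.24 to 0.80, limma adjusted p = 0.152, from 0.138 to 0.504 over its alternatives). All 3 of its probe sets gave a difference between 0.51 and 0.52, each with an unadjusted p under 0.05. Of the 36 genes with more than 1 probe set, Fbxo33 and Fbxo30 were the only ones with more than 1 probe set at that level. Probe sets of 1 gene may share RNA fragments and are no further replicates.

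**Figure D4:**
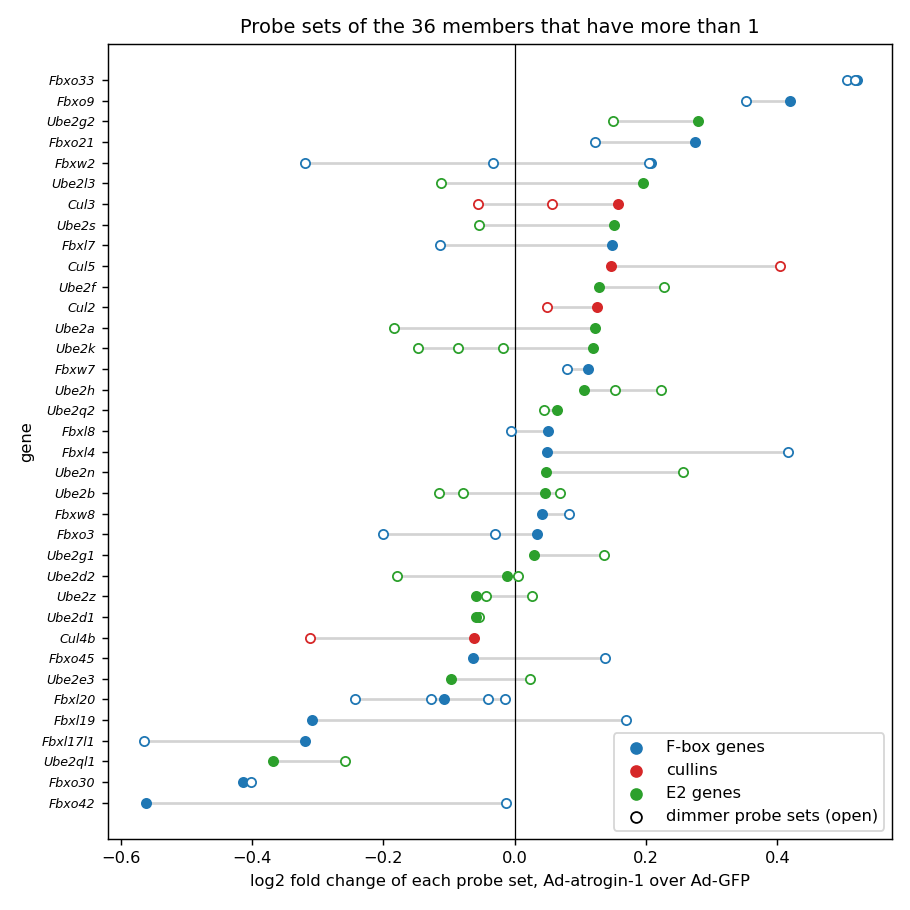
Log2 difference (Ad-atrogin-1 minus Ad-GFP) of every probe set of the 36 genes that have more than 1, filled for the gene's brightest probe set and open for the others. The 3 probe sets of Fbxo33 fall together at 0.51 to 0.52 and the 2 of Fbxo30 at -0.41 and -0.40, whereas 15 genes have probe sets on both sides of 0.

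In 21 of these 36 genes all probe sets had the same sign and in 15 they had opposite signs, and in 34 they lay within 0.5 of each other. The exceptions were Fbxo42 and Fbxw2. Fbxo42, which encodes an F-box protein that binds p53, read 4.63 and 4.49 in Ad-GFP and 4.16 and 3.84 in Ad-atrogin-1 on its brighter probe set. The difference was -0.56 (limma adjusted p = 0.223). Over its alternatives the adjusted p ran from 0.203 (limma with arrays centred on their medians) to 0.581 (the methods' t-test). The dimmer probe set of Fbxo42 gave -0.01. Fbxw2 has 4 probe sets and gave 0.21 on each of the 2 brighter ones. Its dimmer ones gave -0.32 (5.03 and 5.32 against 4.76 and 4.95) and -0.03, the last under the lower quartile on all 4 arrays. Fbxl19, whose protein binds unmethylated CpG DNA, read 5.12 and 5.01 against 4.69 and 4.82 (-0.31) on one probe set and 0.17 on the other.

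Of the other F-box genes, those of the cell cycle differed little. Fbxo5, which encodes the inhibitor Emi1 of the anaphase-promoting complex (APC/C), had signals of 4.77 and 4.73 in Ad-GFP and 4.90 and 5.02 in Ad-atrogin-1, a difference of 0.21. Fbxw7, the F-box gene for cyclin E and MYC, differed by 0.11 and Fbxw11, a relative of beta-TrCP, by -0.08, both with overlapping groups. Skp2, whose protein marks the inhibitor p27, shares its probe set with Skp2-ps1, and that probe set differed by 0.02 (5.5 and 5.57 against 5.58 and 5.54). Of 9 F-box and E2 genes of the cell cycle list none was called, and the median was 0.08.

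Fbxl5, the iron sensor that marks IRP2 for degradation, read 8.27 and 8.34 in Ad-GFP and 8.03 and 7.80 in Ad-atrogin-1, a difference of -0.39 (standard error 0.13, limma adjusted p = 0.300). Fbxl17, which controls the assembly of BTB proteins, differed by -0.03 from signals under the lower quartile. The related gene Fbxl17l1 read 4.86 and 4.74 in Ad-GFP and 4.32 and 4.65 in Ad-atrogin-1 (-0.32), and its dimmer probe set gave -0.57 (4.25 and 3.83 against 3.58 and 3.38), from signals under the lower quartile on 3 of the 4 arrays. Neither passed the adjusted threshold.

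Fbxw5, whose protein works with DDB1 and a CUL4 scaffold, read 8.14 and 8.11 in Ad-GFP and 8.69 and 8.33 in Ad-atrogin-1, a difference of 0.39 (standard error 0.15, limma adjusted p = 0.372). Fbxo9, whose protein targets TEL2 and TTI1, read 7.60 and 7.0 against 7.67 and 7.77. Its difference of 0.42 was smaller than the 0.60 between the Ad-GFP arrays. Fbxl6 read 6.55 and 6.67 against 7.03 and 6.84, a difference of 0.32. These 3 were higher on both Ad-atrogin-1 arrays, and none was called. In the list of 8 F-box genes of chromatin and signalling the median was -0.05, with Fbxo28 at -0.18, Fbxo38 at -0.08 and Fbxo7, a gene of mitophagy, at 0.08.

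The F-box genes not yet named lay between -0.15 and 0.15 on their brightest probe set, except Fbxo8 at 0.19, and none was called. Fbxo8, whose protein also carries a Sec7 domain, read 8.19 and 8.28 in Ad-GFP and 8.37 and 8.46 in Ad-atrogin-1. Fbxl14, a ligase subunit for Snail, was also higher on both Ad-atrogin-1 arrays (6.41 and 6.62 against 6.65 and 6.69). So was Fbxo34 (8.49 and 8.55 against 8.55 and 8.73), though its nearest arrays part only beyond the second decimal. Fbxw17 and Fbxl12 were lower on both, by 0.11 and 0.06 on the log2 scale. Fbxl20, a synaptic ligase subunit, had 5 probe sets, and all gave a negative difference, from -0.24 to -0.01. Fbxl4, a gene of mitochondrial maintenance, gave 0.05 on its brighter probe set and 0.42 on its dimmer one (5.37 and 4.88 against 5.57 and 5.51). Groups overlapped in Fbxo4, Fbxo10, Fbxo11, Fbxo15, Fbxo22, Fbxo41, Fbxo46, Fbxl7, Fbxl8, Fbxl15, Fbxw4, Fbxw8 and Fbxw9, and on the brightest probe set of Fbxl4 and Fbxl20.

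The cullins showed small differences, and none of 7 was called. Cul7, which pairs with Fbxw8, read 7.19 and 7.09 in Ad-GFP and 7.58 and 7.27 in Ad-atrogin-1, a difference of 0.28 (standard error 0.15, interval -0.09 to 0.65, limma adjusted p = 0.492, from 0.436 to 0.793 over its alternatives). Cul3, the scaffold for BTB adaptors such as Keap1, read 10.32 and 10.25 against 10.40 and 10.48, a difference of 0.16. Cul5, a scaffold that holds its adaptors through elongins, read 8.07 and 8.06 against 8.22 and 8.21, a difference of 0.15. In these 3 genes both Ad-atrogin-1 arrays were above both Ad-GFP arrays. The dimmer probe set of Cul5 read 5.97 and 5.81 against 6.16 and 6.44, a difference of 0.40.

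Cul2, the elongin scaffold of the von Hippel-Lindau ligase, differed by 0.13 and Cul9 by 0.11, with overlapping groups, and Cul9 was under the lower quartile on all 4 arrays. The DDB1 scaffolds were the only cullins with a negative difference. Cul4a read 8.47 and 8.18 in Ad-GFP and 8.38 and 8.09 in Ad-atrogin-1 (-0.09), and Cul4b read 5.59 and 5.61 against 5.71 and 5.37 (-0.06). The dimmer probe set of Cul4b read 5.15 and 5.21 against 4.89 and 4.85, a difference of -0.31. The sign of Cul4a turned (0.06) when Ad-GFP replicate 1 or Ad-atrogin-1 replicate 2 was left out, and that of Cul4b (0.11) in the latter case.

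The 5 E2 genes of ER-associated degradation, the route by which misfolded ER proteins reach the proteasome, all had a positive difference, with a median of 0.12, and none was called. Ube2j1, an E2 enzyme anchored in the ER membrane, read 8.29 and 8.42 in Ad-GFP and 8.53 and 8.82 in Ad-atrogin-1. Its difference was 0.32 (standard error 0.15, interval -0.04 to 0.69, limma adjusted p = 0.436, from 0.392 to 0.690 over its alternatives). Ube2g2, which works with the ER ligases gp78 and HRD1, read 7.79 and 7.89 against 7.98 and 8.25, a difference of 0.28. The second membrane-anchored E2 gene, Ube2j2, read 9.11 and 9.07 against 9.12 and 9.28 (0.11). These 3 genes were higher on both Ad-atrogin-1 arrays, while Ube2k (0.12) and Ube2g1 (0.03) had overlapping groups. After a further quantile normalization Ube2g1 was at -0.006, and with the mean of its 4 probe sets Ube2k was at -0.03.

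Promoter sequences from RefSeq (build GRCr8, 250 bases before to 50 after the gene start) were matched for 76 of the 87 genes and searched on both strands. The unfolded protein response element TGACGTGG, the letters bound by ATF6 and XBP1, occurred in 2 of the 76 (2.63%), Ube2j1 and Ube2g2, and in 187 of 27457 promoters on the whole (0.681%). The 250 bases before the start of both genes are shown because they carry these letters, which are in capitals and read CCACGTCA, the same letters on the other strand. They lie 76 to 69 bases before the start in Ube2j1 and 59 to 52 in Ube2g2.
Ube2j1, chr5:52218557-52218806, plus strand: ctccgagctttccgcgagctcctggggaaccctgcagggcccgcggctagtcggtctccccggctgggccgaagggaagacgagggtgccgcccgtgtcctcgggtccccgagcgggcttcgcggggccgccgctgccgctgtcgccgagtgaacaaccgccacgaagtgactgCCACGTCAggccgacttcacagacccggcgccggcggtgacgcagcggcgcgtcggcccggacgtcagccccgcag
Ube2g2, chr20:11005061-11005310, minus strand: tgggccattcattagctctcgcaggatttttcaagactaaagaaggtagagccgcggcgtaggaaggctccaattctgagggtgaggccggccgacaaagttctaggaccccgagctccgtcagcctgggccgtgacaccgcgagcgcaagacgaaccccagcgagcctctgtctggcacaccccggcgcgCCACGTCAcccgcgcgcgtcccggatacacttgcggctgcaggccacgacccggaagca
The E2F letters TTTCGCGC occurred in 1 of the 76 (1.32%), Fbxo8, against 0.361% of all promoters. None of the 76 held the ER stress element (CCAAT and CCACG, 9 bases apart; 0.0765% of all promoters), its second form (ATTGG and CCACG, 1 base apart; 0.0619%), the C/EBP-ATF element TGATGCAAT (0.211%) or the forkhead letters TGTTTAC (4.13%). CCACG is also part of the reversed unfolded protein response element. A match only describes the letters of a window.

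Among the E2 genes of DNA damage and Lys63-linked chains, none of 5 was called and the median log2 difference was 0.05. Ube2t, the E2 enzyme of the Fanconi anemia pathway, read 5.01 and 5.20 in Ad-GFP and 5.83 and 5.45 in Ad-atrogin-1, a difference of 0.54 (standard error 0.17, interval 0.11 to 0.96, limma adjusted p = 0.274, from 0.239 to 0.636 over its alternatives). It was the E2 gene with the largest difference and was higher on both Ad-atrogin-1 arrays, though not called. The RAD6 genes Ube2a and Ube2b differed by 0.12 and 0.05, and Ube2n and Ube2v2, which together build Lys63-linked chains, by 0.05 and -0.05. The dimmer probe set of Ube2a went the other way (7.66 and 7.62 against 7.54 and 7.38, -0.18). Ube2v1 and Ube2v1l1 share 4 probe sets. The brighter ones read 9.45 and 9.48 against 9.22 and 9.40 (-0.16) and 9.32 and 9.34 against 9.14 and 9.18 (-0.17), in both cases with both Ad-atrogin-1 arrays below both Ad-GFP arrays. The dimmer ones, under the lower quartile on all 4 arrays, differed by -0.27 and 0.08.

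Ube2s, which extends ubiquitin chains on substrates of the APC/C, read 10.18 and 9.98 in Ad-GFP and 10.21 and 10.25 in Ad-atrogin-1, a difference of 0.15. Ube2r2, a relative of the SCF enzyme Cdc34, read 9.16 and 8.97 against 9.17 and 9.12 (0.08). The E2 enzymes of the UBE2D and UBE2E groups serve many ligases. Of their 4 genes with a probe set of their own, Ube2e2 was at 7.28 and 7.31 in Ad-GFP and 7.54 and 7.50 in Ad-atrogin-1, a difference of 0.23. Ube2d1, Ube2d2 and Ube2e3 differed by -0.06, -0.01 and -0.10. The probe sets that Ube2d3 shares with Ube2d2 differed by -0.18, 0.06 and -0.00, and that of Ube2e1 and Ube2e2 by 0.04. The arrays of a group differed by up to 0.84 for Ube2d1, the widest interval among the E2 genes (-0.81 to 0.69).

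The E2 genes of ubiquitin-like modifiers were among the evenest. Ube2m, the NEDD8 enzyme that serves cullin modification, read 9.09 and 9.21 in Ad-GFP and 9.14 and 8.98 in Ad-atrogin-1 (-0.09). Ube2f, the NEDD8 enzyme linked to Cul5, read 8.28 and 8.25 against 8.39 and 8.39 (0.13). Ube2l6, the ISG15 enzyme induced by interferon, differed by -0.10 and Ube2z by -0.06. The groups overlapped in all of these but Ube2f.

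Of the remaining E2 genes, Ube2ql1 had the largest negative difference, with signals of 6.97 and 6.66 in Ad-GFP and 6.48 and 6.41 in Ad-atrogin-1. The difference was -0.37 (standard error 0.15, limma adjusted p = 0.368), and its dimmer probe set gave -0.26. Ube2o, a hybrid of E2 and E3 enzyme, read 7.81 and 7.79 against 7.93 and 8.22 (0.28), and Ube2l3, which serves HECT and RBR ligases, read 10.28 and 10.15 against 10.30 and 10.52 (0.20). The dimmer probe set of Ube2l3 went the other way (8.53 and 8.62 against 8.50 and 8.42, -0.11). Ube2h, an E2 gene of red cell maturation, differed by 0.11 with overlapping groups, Ube2q1 by -0.14 and Ube2q2 by 0.06. Ube2d2b (-0.19), Fbxo36, Fbxo39, Fbxl18 and Ube2u were, like Cul9, Fbxl17 and Fbxo2, under the lower quartile on all 4 arrays.

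Of 55 further symbols listed, some of them alternative names of 1 gene, 44 were measured. The list holds, among others, E1 enzymes, SKP1, RING and elongin subunits, the COP9 signalosome, NEDD8 and ubiquitin genes. Limma called none in either direction, with a median of 0.06. At an unadjusted p under 0.05 it had 1 higher and 2 lower, against 6.83% and 6.52% of all genes. The 4 with the smallest p were Cand2, Btrc, Ufc1 and Atg3. Cand2, a muscle-enriched relative of the factor that exchanges F-box proteins on Cul1, read 8.38 and 8.20 in Ad-GFP and 7.70 and 7.36 in Ad-atrogin-1, a difference of -0.76 (standard error 0.16, limma adjusted p = 0.140). Btrc, the F-box protein gene for beta-catenin and I-kappa-B, read 7.69 and 7.70 against 7.24 and 7.03, a difference of -0.56 (limma adjusted p = 0.172). For these genes, too, the groups did not overlap. Cul1, the scaffold of the atrogin-1 ligase itself, differed by 0.13.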

How the data were processed

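The deposited table holds log2 signals of probe sets on 4 Affymetrix rat genome arrays, which the authors computed by RMA (robust multi-array average, also named in the submitters' processing notes). They were used as deposited. Control probe sets (57) were left out and no filter on low signal was set. Depth does not apply to arrays, and their number limits the precision. Probe sets were paired with genes through the platform annotation (20826 with 1 gene, 436 with several, 9780 with none). All 87 gene IDs were found in RefSeq.

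Ad-atrogin-1 was tested against Ad-GFP over all probe sets by the moderated two-sided test of limma (version 3.58.1; R version 4.3.3; lmFit, then eBayes, with no block). The fit had 2 residual and 3.65 prior degrees of freedom. The brightest probe set by mean signal stood for its gene, with Benjamini-Hochberg adjustment over 14217 genes. The script was tested on simulated data. SDs of group means are not printed where both arrays are given. An equal-variance t-test on the same values, called the methods' t-test here, and the other alternatives are given with the limits below. Ranges of the adjusted p over alternatives include this t-test. For its arrays the paper names no t-test, only a comparison of 2 means, and it reports regulated genes in both directions. The lack of calls by this t-test is therefore a result of the run here and not of the paper.

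The named genes were: every member called; the 10 with the largest difference in each direction among those whose groups do not overlap; members with a probe set at an unadjusted p under 0.05 and another of opposite sign; the 2 brightest of each role list; every cullin; and the 4 other pathway genes with the smallest p. Others were named as members of a role list or for their probe sets, after their values were seen. Members and lists were chosen with earlier results of these data known.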

Additional observations from a re-analysis of the deposited data

How the results depend on the processing

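Fbxo16 was called with arrays centred on their medians, after a further quantile normalization, with an intensity trend or a robust prior, with a gene's probe sets averaged, and at 1.5-fold or no fold threshold (adjusted p from 0.0106 to 0.0179, limma). The count of genes and of probe sets called higher was 2 (with Fbxl22) at 2-fold with no test. It was 0 with the methods' t-test, in the upper 60% of probe sets by signal (Fbxo16 was not in this set) and with any 1 array left out (0 to 0); a group then has 1 array, assumed to vary like the other group. No gene or probe set of the part was called lower under any of these. Over all 14217 genes, 117 were higher and 55 lower at 2-fold with no test. With the replicate number as a block (replicate block) limma called 0 of the 87 genes, and the adjusted p of Fbxo16 was 0.144. The labels do not say whether same-numbered arrays came from 1 experiment. The correlation of their deviations was 0.043 over all probe sets, which cannot settle that. No other of the 87 genes was called with or without the block. Over all 14217 genes 65 were called higher and 8 lower; centring gave 80 and 18, quantile normalization 74 and 20, the methods' t-test 0 and 0, the block 1 and 0, and each fit without 1 array 0 or 1 higher and 0 lower, so the calls were lost over the whole array there and not for Fbxo16 alone. At an unadjusted p under 0.05, 3 genes were higher and 3 lower in the upper 60%, and 2 were lower with the methods' t-test; with 1 array left out, 3 to 7 were higher and 0 to 4 lower. The F-box median then ran from -0.021 to 0.065. The cause was not tested.

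Of the 42 named genes 29 kept their sign under every alternative run. The others, all close to 0, changed sign. With a gene's probe sets averaged, Fbxo3 was at -0.066, Ube2b at -0.02 and Ube2k at -0.034, and after a further quantile normalization Ube2b was at -0.007 and Ube2g1 at -0.006. With 1 array left out Cul4a ran from -0.235 to 0.057, Cul4b ran from -0.232 to 0.108, Fbxl17 ran from -0.114 to 0.057, Fbxo3 ran from -0.207 to 0.274, Fbxo38 ran from -0.23 to 0.063, Fbxw11 ran from -0.267 to 0.107, Ube2b ran from -0.049 to 0.141, Ube2d2 ran from -0.092 to 0.067, Ube2g1 ran from -0.154 to 0.211, Ube2h ran from -0.033 to 0.244, Ube2l6 ran from -0.282 to 0.076 and Ube2v2 ran from -0.163 to 0.055. Background correction could not be varied on RMA values. Dim probe sets, such as those of Fbxo16 in Ad-GFP, limit the precision of a fold.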
